A study of Homo sapiens with 11 samples.

Results

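The olfactory receptor genes of chromosome 11 were examined in Ikaros chromatin immunoprecipitation sequencing (ChIP-seq) peak lists from human B-cell acute lymphoblastic leukemia lines. The set held the protein-coding genes of that chromosome whose symbol is OR followed by a number, letters and a number, as in OR5A1, and pseudogenes were left out. These were 172 of the 20033 protein-coding genes of the annotation. The cell lines JM1, REH, Nalm6 and 697 derive from B-cell precursor leukemia. JM1 cells exposed for 1 day to CX-4945 at 20 µM were set against untreated JM1 cells, and CX-4945 blocks the kinase CK2. REH cells were untreated. Nalm6 cells had the same exposure (20 µM, 1 day), and 697 cells were untreated. JM1 and REH libraries were made with a Bethyl antibody (A303-516A) and Nalm6 and 697 libraries with an affinity-purified antibody, so line and antibody cannot be told apart between these pairs. Each condition had 1 peak list, so no difference below has a replicate check, no test across samples was possible, and intervals cover counting error only. The Nalm6 condition had 2 Ikaros libraries and 1 list.

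Olfactory receptors are G protein-coupled receptors that detect odorants on the cilia of olfactory sensory neurons. Their genes lie in clusters, have a coding sequence that usually fills 1 exon, and are silent in most other tissues. In the mouse, a sensory neuron expresses 1 receptor gene while the others are packed in heterochromatin, and LHX2, LDB1 and EBF proteins act at the enhancers of the chosen genes. Class I receptors, families 51 to 56, resemble those of fish, and class II receptors make up the other families. Ikaros (gene IKZF1) is a DNA-binding zinc finger protein needed for B-cell development, and its sites hold the core GGGAA. The receptor genes served as a contrast set chosen as silent and GC-poor in B-lineage cells, and transcription was not measured here.

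The peak lists held 88692 peaks in treated JM1, 37448 in untreated JM1, 83563 in REH, 70894 in Nalm6 and 19652 in 697. Read depth was not analysed here, and a longer list cannot be read as more binding. As marker lists, 10 B-lineage genes such as CD79A, PAX5 and RAG1 and 8 genes of olfactory neurons such as OMP and CNGA2 were looked up. A peak lay near a transcription start site (TSS) of 10 of the B-lineage genes in treated JM1, 9 in untreated JM1, 9 in REH, 9 in Nalm6 and 3 in 697. Over all protein-coding genes the shares were 81.2% in treated JM1, 58.8% in untreated JM1, 81.8% in REH, 74.3% in Nalm6 and 49.5% in 697, so the B-lineage share in 697 (30%) was below that of all genes. For the olfactory neuron genes the counts were 6, 3, 5, 5 and 3 of 8 in the same order of lists, and in 697 their share (37.5%) was above the B-lineage one. A peak is not a measure of expression, and these counts do not identify a cell type.

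Of the 172 receptor genes, 55 were class I and 117 class II, and 168 lay in 5 clusters (runs of at least 5 receptor genes with gaps of at most 1 Mb). Cluster 1, from OR52B4 to OR10A3 (chromosome 11, 4367263 to 7941708, GRCh38), held 67 receptor genes, including all 55 of class I, and the β-globin genes lie inside it. Cluster 2 held 7 (48216810 to 48489722), cluster 3 held 51 (54603069 to 56989843), cluster 4 held 21 (58023881 to 59713845) and cluster 5 held 22 (123753580 to 124582942). OR4C13, OR4C12, OR4C45 and OR2AT4 lay outside them.

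At 9 sites a peak stood in more than 1 list, and the stretch shared by the peaks is shown for 6 of them, chosen after their values were seen. Those at OR51D1, OR10Q1 and OR5B21 are not shown. The promoter of OR4C46 is set beside them as that of the receptor gene farthest from any peak. Capitals mark GGGAA or its reverse complement TTCCC. The 131 bases between the first exons of TRIM5 and OR56A3 (chr11:5938620-5938750, plus strand of GRCh38, as for the other peak stretches) lay in a peak of treated JM1 and of REH, as did the stretches upstream of OR10S1 (chr11:123979232-123979501) and OR6A2 (chr11:6817968-6818267). The stretches given to OR51I2 (chr11:5461006-5461305) and OR4A15 (chr11:55356532-55356747) lay in peaks of treated JM1, REH and Nalm6, and that given to OR5T3 (chr11:56260604-56260903) in peaks of treated JM1 and Nalm6. The OR4C46 promoter is the RefSeq entry of GRCh38.p14 (chr11:54603949-54604248, minus strand).
OR56A3: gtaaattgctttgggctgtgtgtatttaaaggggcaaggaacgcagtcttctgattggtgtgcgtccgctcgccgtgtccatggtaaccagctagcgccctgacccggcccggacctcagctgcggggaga
OR10S1: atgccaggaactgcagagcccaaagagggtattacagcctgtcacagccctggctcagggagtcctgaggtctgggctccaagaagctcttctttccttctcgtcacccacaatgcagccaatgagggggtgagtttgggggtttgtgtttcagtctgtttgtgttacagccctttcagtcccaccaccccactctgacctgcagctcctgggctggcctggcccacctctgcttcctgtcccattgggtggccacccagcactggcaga
OR6A2: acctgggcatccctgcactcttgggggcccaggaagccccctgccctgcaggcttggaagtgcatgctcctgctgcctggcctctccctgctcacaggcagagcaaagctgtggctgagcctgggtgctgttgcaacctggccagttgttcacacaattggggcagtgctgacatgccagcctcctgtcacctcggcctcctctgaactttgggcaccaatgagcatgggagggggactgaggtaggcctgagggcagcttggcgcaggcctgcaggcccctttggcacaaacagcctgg
OR51I2: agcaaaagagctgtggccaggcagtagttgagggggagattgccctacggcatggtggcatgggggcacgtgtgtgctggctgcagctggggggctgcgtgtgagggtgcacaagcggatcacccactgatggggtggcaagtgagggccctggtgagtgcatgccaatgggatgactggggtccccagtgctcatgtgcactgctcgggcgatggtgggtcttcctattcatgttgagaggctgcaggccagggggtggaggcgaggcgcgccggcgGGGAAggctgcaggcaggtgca
OR4A15: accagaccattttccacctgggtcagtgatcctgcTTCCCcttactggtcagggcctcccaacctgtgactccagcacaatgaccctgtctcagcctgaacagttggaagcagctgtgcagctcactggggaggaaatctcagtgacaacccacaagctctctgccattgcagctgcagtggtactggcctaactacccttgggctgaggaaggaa
OR5T3: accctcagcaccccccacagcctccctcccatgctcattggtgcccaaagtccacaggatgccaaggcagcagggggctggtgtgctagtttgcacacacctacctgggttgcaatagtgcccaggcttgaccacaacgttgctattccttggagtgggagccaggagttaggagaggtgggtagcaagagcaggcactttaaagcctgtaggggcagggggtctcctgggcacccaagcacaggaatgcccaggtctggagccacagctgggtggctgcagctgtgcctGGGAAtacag
OR4C46: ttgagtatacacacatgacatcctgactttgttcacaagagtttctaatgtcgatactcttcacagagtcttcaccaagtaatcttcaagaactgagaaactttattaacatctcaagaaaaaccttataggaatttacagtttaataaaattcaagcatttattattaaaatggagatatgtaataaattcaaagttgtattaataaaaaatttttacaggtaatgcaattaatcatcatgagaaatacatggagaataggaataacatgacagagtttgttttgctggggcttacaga

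The stretches with peaks were rich in G and C, at 58.8% for OR56A3, 58.1% for OR10S1, 63.3% for OR6A2, 64.7% for OR51I2, 55.6% for OR4A15 and 60% for OR5T3, against 29.3% in the OR4C46 promoter. That promoter was below the median of 37% over the 133 receptor promoters found in RefSeq, and within 500 bp of its TSS OR4C46 had 39.5% GC. The letters GGGAA, on either strand, stood once in the printed stretches of OR51I2, OR4A15 and OR5T3 and not in the other 4 windows. The whole Nalm6 peak at OR5T3 held them at 2 places, both within TGGGAA, and each OR10Q1 peak held them once, so no share of sites can be read from the windows printed.

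Receptor genes of chromosome 11 had few Ikaros peaks in any list. In treated JM1, 6 of 172 (3.49%, 95% exact interval 1.29 to 7.44%) had a TSS within 1 kb of any part of a peak, against a background of 81.2% over all protein-coding genes. In untreated JM1 none did (0 of 172, exact interval 0 to 2.12%), against a background of 58.8%. In REH the count was 6 (3.49%) where 81.8% of protein-coding genes had such a peak, in Nalm6 it was 4 (2.33%, 0.637 to 5.85%) where 74.3% did, and in 697 it was 0 where 49.5% did. Over the 5 lists together, 13 receptor genes (7.56%) lay near a peak in at least 1 list, where 85.3% of protein-coding genes did. Of the 13, 10 had it in 1 list and 3 in 2 lists, whereas 8366 protein-coding genes (41.8%) had one in all 5. Receptor genes have fewer annotated TSSs, with a median of 1 against 5 over all protein-coding genes, which gives the rule fewer places to find a peak. The part of this in the counts was not tested.

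**Figure D1:**
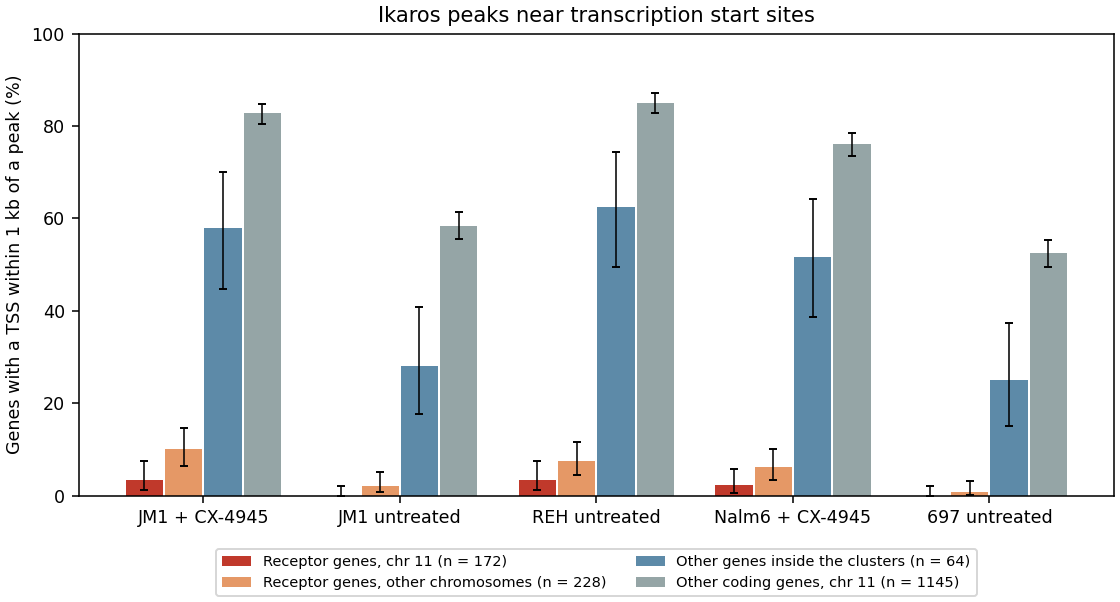
Share of genes with a TSS within 1 kb of a peak (y axis, %) in each of the 5 lists (x axis), for 4 groups of genes; bars are shares and lines are 95% exact intervals. The receptor genes of chromosome 11 sit at 3.49% or less in every list, under the 25 to 62.5% of the other genes inside the same clusters.

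Other genes inside the same clusters were covered more often. These were 64 protein-coding genes that are no receptors, of which 37 lay within 1 kb of a peak in treated JM1 (57.8%, 44.8 to 70.1%), 18 in untreated JM1 (28.1%), 40 in REH (62.5%), 33 in Nalm6 (51.6%) and 16 in 697 (25%). Their intervals did not overlap those of the receptor genes in any of the 5 lists. The intervals treat genes as independent, yet some neighbours, such as ILK and RRP8, had the same scores wherever they had a peak. A peak can thus count for several genes. These genes were also richer in GC within 500 bp of the TSS, with a median of 52.0% against 39.5% at the receptor genes. The part of GC in this contrast was not tested. Among them LPXN, which encodes the adhesion adaptor leupaxin, and its neighbour ZFP91 had peaks in all 5 lists, with scores of 42 in treated JM1, 15 in untreated JM1, 88 in REH, 66 in Nalm6 and 28 in 697. FAM111A, which encodes a protease, had scores of 90 in treated JM1, 64 in untreated JM1, 271 in REH and 24 in Nalm6. Of the 5 β-like globin genes, which serve erythroid cells and also lie there, 0 had such a peak in any list. Scores are the authors' own and serve only to rank peaks within a list.

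Receptor genes of the other chromosomes were also sparsely covered. Of 228, 23 met the same rule in treated JM1 (10.1%, 6.50 to 14.8%), 5 in untreated JM1 (2.19%), 17 in REH (7.46%), 14 in Nalm6 (6.14%) and 2 in 697 (0.877%). These shares were higher than those of the chromosome 11 genes in each list, with overlapping intervals, and the difference was not tested.

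Genes of odor transduction and of receptor gene choice, taken as a list of 27, were covered far more often than the receptor genes. The counts were 24 in treated JM1 (88.9%), 19 in untreated JM1 (70.4%), 23 in REH (85.2%), 23 in Nalm6 (85.2%) and 16 in 697 (59.3%), above the share over all protein-coding genes in each list, with no test. GNAL, the olfactory G protein alpha subunit, had scores of 28 in treated JM1, 22 in untreated JM1, 36 in REH, 56 in Nalm6 and 45 in 697. ADCY3, the adenylate cyclase of the cilia, scored 45 in treated JM1, 35 in untreated JM1, 37 in REH, 51 in Nalm6 and 83 in 697. LHX2 and EBF1, which encode transcription factors, also had peaks in all 5 lists, and EBF1 is a B-cell factor as well. CNGA4, a subunit of the olfactory cyclic nucleotide-gated channel, lies inside cluster 1 and had peaks in 4 lists, at 24 in treated JM1, 21 in untreated JM1, 33 in REH and 26 in Nalm6. The channel subunit gene CNGA2, RTP2, whose product helps receptors to the cell surface, and STOML3, a stomatin-like protein of the cilia, had none in any list. OMP, the marker protein of mature sensory neurons, had peaks scored 18 in treated JM1 and none in untreated JM1, 25 in REH, and 17 in Nalm6 and none in 697.

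JM1 cells with and without CX-4945 were the treatment comparison of the series. At receptor genes, 6 lay near a peak in the treated list alone (3.49%), 0 in both lists and 0 in the untreated list alone. Over all protein-coding genes, 23% were in the treated list alone and 58.2% in both. The 6 were OR4S1 (score 24, 74.3rd percentile of the treated list), OR10S1 (20), OR56A3 (15), OR10Q1 (15), OR51D1 (12) and OR52W1 (10). With both JM1 lists at the length of the shorter one by score, OR4S1 and OR10S1 were left. The share of all protein-coding genes left at that length is not given here. Untreated REH cells also had 6, with OR51D1, OR56A3 and OR10Q1 among them. Thus 3 of the 6 treated JM1 genes also had a peak in REH. Of the 16270 protein-coding genes near a treated JM1 peak, 15734 also had one in REH. Set against untreated JM1, REH had 6 receptor genes alone and 0 shared, where 23.5% of protein-coding genes were in the REH list alone and 58.3% in both. Between treated JM1 and REH, 3 receptor genes were shared and 3 were in treated JM1 alone (1.74% of the 172 in each case). Among all protein-coding genes, 78.5% were shared and 2.68% were in treated JM1 alone. In the pair made with the other antibody, treated Nalm6 had 4 receptor genes near a peak and untreated 697 had 0, while 26% of protein-coding genes were in the Nalm6 list alone and 48.3% in both. Neither short list, untreated JM1 or 697, reached a receptor TSS, and list length cannot be told apart from treatment or line here. When each list was cut to its 19652 highest-scored peaks, the length of the 697 list, 0 receptor genes remained in any list, where 60.5% of protein-coding genes did in treated JM1, 45.3% in untreated JM1, 62.2% in REH, 54.4% in Nalm6 and 49.5% in 697.

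Among the class I genes, 5 of 55 lay near a peak in at least 1 list, and all 5 lie in cluster 1. OR51D1 had peaks with the centre 124 bp from its TSS in treated JM1 (score 12) and 164 bp in REH (17), and none in untreated JM1, Nalm6 or 697. Its neighbour OR51E1, a receptor known also from prostate tissue, had a peak in REH alone (16, 4643861 to 4645329), in an intron by the authors' annotation. OR56A3 had a peak in treated JM1 (15, 5938350 to 5939307) and in REH (19, 5938377 to 5938882). The same stretch holds a TSS of TRIM5, which encodes a restriction factor against retroviruses, and the authors gave the REH peak to TRIM5 and the treated JM1 peak to OR56A3. These peaks cannot be assigned to either gene. A Nalm6 peak (17, 5947412 to 5947694) lay in the OR56A3 coding exon, 5.30 kb from the nearest TSS. OR52W1 had the lowest score that the lists hold, 10, over its TSS in treated JM1. OR52N2 had a REH peak (14) that the authors gave to the pseudogene OR52N3P.

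Among the class II genes, 8 of 117 lay near a peak in at least 1 list. OR4S1 in cluster 2 had the highest score of the near-TSS peaks of the treated JM1 list, and that peak (48305285 to 48305690) ended 533 bp before the TSS, in the promoter class. OR10Q1 had a treated JM1 peak (58226693 to 58228125, score 15) annotated to its transcript end and a REH peak (58228007 to 58228638, score 21) annotated to its exon, and the peaks overlap. OR10S1 had a treated JM1 peak in its exon (score 20) and another upstream (12), of which the upstream one overlapped a REH peak (17). OR8B8 had a promoter-class peak in REH (20). The 4 genes with a peak near a TSS in Nalm6 were OR10AG1 (18), OR2AT4 (18), OR4D6 (17) and OR6M1 (11), and none of these peaks overlapped a peak of another list. Of all Nalm6 peaks, 74.2% overlapped a peak of treated JM1, 35.4% of untreated JM1, 77.3% of REH and 21.7% of 697. OR2AT4, a receptor known from skin keratinocytes, stands outside the clusters, and its peak was given to SLCO2B1, an organic anion transporter gene. OR51E1, OR52N2, OR52W1 and OR6M1, and OR8J1, OR8J2, OR52B6, OR1S1, OR5AN1, OR5AK2 and OR5B12 where they are given, fell outside the rule for naming genes and were named after their values had been seen.

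**Figure D2:**
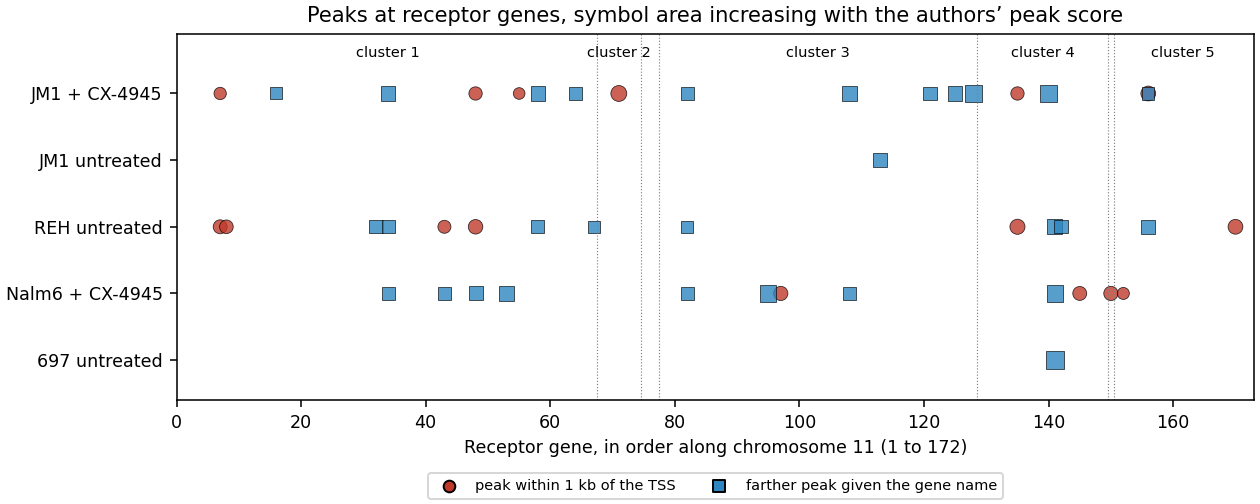
Every peak within 1 kb of a receptor TSS (red circles) and every farther peak that the authors gave a receptor gene's name (blue squares), by list (y axis) and by the gene's order along chromosome 11 from 1 to 172 (x axis); symbol area increases with the authors' score and dotted lines part the clusters and the genes outside them. Untreated JM1 and 697 have 1 peak each, and treated JM1 has 17.

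By the authors' nearest-gene names, receptor genes were named for 17 peaks in treated JM1, 1 in untreated JM1, 12 in REH, 11 in Nalm6 and 1 in 697. These peaks named 16 of 172 receptor genes in treated JM1 (9.30%, where 74.2% of protein-coding genes were named), 1 in untreated JM1 (0.581%, where 55.9% were), 12 in REH (6.98%, where 72.9% were), 11 in Nalm6 (6.40%, where 70.2% were) and 1 in 697 (0.581%, where 45.8% were). The names carried most often were OR51I2, OR4A15, OR5B21 and OR10S1, with 3 peaks each. The OR51I2 site lay 11.8 to 12.1 kb from its TSS, inside intron 1 of a long transcript of the receptor gene OR51B5. Its score was 18 in treated JM1, with 15 for REH and 16 for Nalm6, and untreated JM1 and 697 had no peak there. The OR4A15 site lay upstream by 11.3 to 11.6 kb and scored 13, 11 and 13 in the same lists. The OR5B21 site lay 23.9 to 24.2 kb upstream, in an intron of a transcript of LPXN by the authors' annotation, and scored 20 in REH, 25 in Nalm6 and 33 in 697. It was the sole such peak of the 697 list. The sole receptor peak of untreated JM1 (56211881 to 56212321, score 14) was placed in the promoter of OR8J1, but in GENCODE release 44 the nearest OR8J1 TSS lies 142 kb away. In that release the peak lies inside the receptor gene OR8J2 (56208985 to 56215222), 2901 bp from its TSS. OR6A2, the human counterpart of the rat I7 receptor for aldehydes, was named for a peak 18.4 kb upstream in treated JM1 (18) and 18.8 kb in REH (13). OR5T3 was named for a peak 8.03 kb away in treated JM1 (20) and 8.50 kb away in Nalm6 (13).

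Counting peaks near a TSS or named for a receptor gene, there were 45 peaks over the 5 lists, at 33 separate sites and for 30 genes. Of the sites, 24 carried a peak in 1 list, 6 in 2 and 3 in 3, and 0 in 4 or 5. The same count of sites over all peaks is not given here. Of the 17 treated JM1 peaks, 0 overlapped an untreated JM1 peak, where 29.0% of all treated peaks did, 7 overlapped a REH peak (41.2%, where 65.7% did) and 3 a Nalm6 peak (17.6%, where 50.7% did). Of the 14 REH peaks, 7 overlapped a treated JM1 peak (50%, where 68.0% did) and 3 a Nalm6 peak (21.4%, where 54.0% did). Of the 12 Nalm6 peaks, 3 overlapped a treated JM1 peak (25%, where 74.2% did) and 3 a REH peak (25%, where 77.3% did). Against the 697 list, made with the same antibody, it was 1 of 12 (8.33%, where 21.7% did). A narrow peak has fewer bases to overlap, and the part of width and score in these shares was not tested. Receptor peaks were low within the REH list (median score 15.5, against 21 over the list) and the Nalm6 list (17 against 20). In treated JM1 the median score was 17, near the 18 of the whole list. A site held by several lists counts once per list in the pooled counts. Of the 45, 34 lay under the 50th score percentile of their own list, 38 were narrower than the median peak of their list and 0 reached the 90th percentile. Their median score percentile was 45.6 in treated JM1, against 40.3 for the sole untreated JM1 peak. It was 22.2 in REH and 34.8 in Nalm6, and the sole 697 peak lay at 73.7. Median width was 482 bp in treated JM1, against 1185 bp over all treated JM1 peaks, 467 bp in REH against 1195 bp, and 379 bp in Nalm6 against 862 bp.

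Receptor TSSs lay far from the nearest peak. The median distance was 43.1 kb in treated JM1 (quartiles 21.7 and 92.4), 223 kb in untreated JM1 (109 and 530), 53.7 kb in REH (27.2 and 132), 56.3 kb in Nalm6 (25.7 and 110) and 298 kb in 697 (143 and 742). Over the other 1145 protein-coding genes of chromosome 11 the median was 0 kb in treated JM1, REH and Nalm6, 0.012 kb in untreated JM1 and 0.321 kb in 697. The receptor genes farthest from any peak of the 5 lists were OR4C46 at 752 kb, OR4A8 at 673 kb and OR4A5 at 649 kb. All 3 stand at the start of cluster 3, where no list had a peak over 753 kb (54603069 to 55356012). Around the TSS, 79.0% of 50-base words were found once in the genome for OR4C46, 82.8% for OR4A8 and 83.5% for OR4A5. The median of the receptor genes was 100%. The part of this in the distances was not tested.

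**Figure D3:**
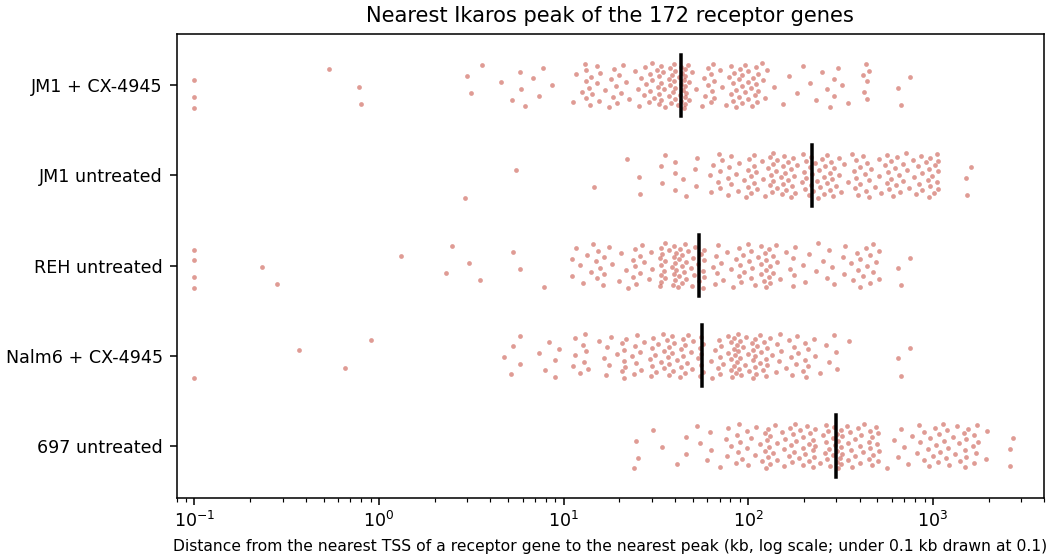
Distance from each of the 172 receptor genes' nearest TSS to the nearest peak (x axis, kb, log scale, with values under 0.1 kb drawn at 0.1) in each list (y axis); each point is a gene and the black bar is the median. The medians lie at 43.1 kb in treated JM1, 223 kb in untreated JM1, 53.7 kb in REH, 56.3 kb in Nalm6 and 298 kb in 697.

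Peak density inside the clusters was lower than on the rest of chromosome 11 in every list. The clusters, 8.75 Mb in all, held 127 peaks in treated JM1 (14.5 per Mb, against 34.3 per Mb on the rest of the chromosome), 31 in untreated JM1 (3.54 against 15.2), 125 in REH (14.3 against 33.7), 97 in Nalm6 (11.1 against 30.5) and 22 in 697 (2.51 against 9.22). Peaks covered 1.64% of cluster sequence in treated JM1, against 7.64% of the rest, and 0.307% in untreated JM1, against 1.87% of the rest. Cluster 3, with 51 receptor genes and 3 other protein-coding genes, had 2.51 peaks per Mb in treated JM1, 0.419 in untreated JM1, 1.68 in REH, 3.35 in Nalm6 and 0 in 697. Cluster 1, with 45 other protein-coding genes, had 23.5 per Mb in treated JM1, 5.60 in untreated JM1, 23.2 in REH, 17.3 in Nalm6 and 3.64 in 697. Of the 127 cluster peaks of treated JM1, 49 lay within 1 kb of a TSS of a protein-coding gene that is no receptor, 6 near a receptor TSS (1 of them near both kinds), 1 near a receptor pseudogene and 72 near none of these. In untreated JM1 these counts were 17, 0, 0 and 14 of 31.

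**Figure D4:**
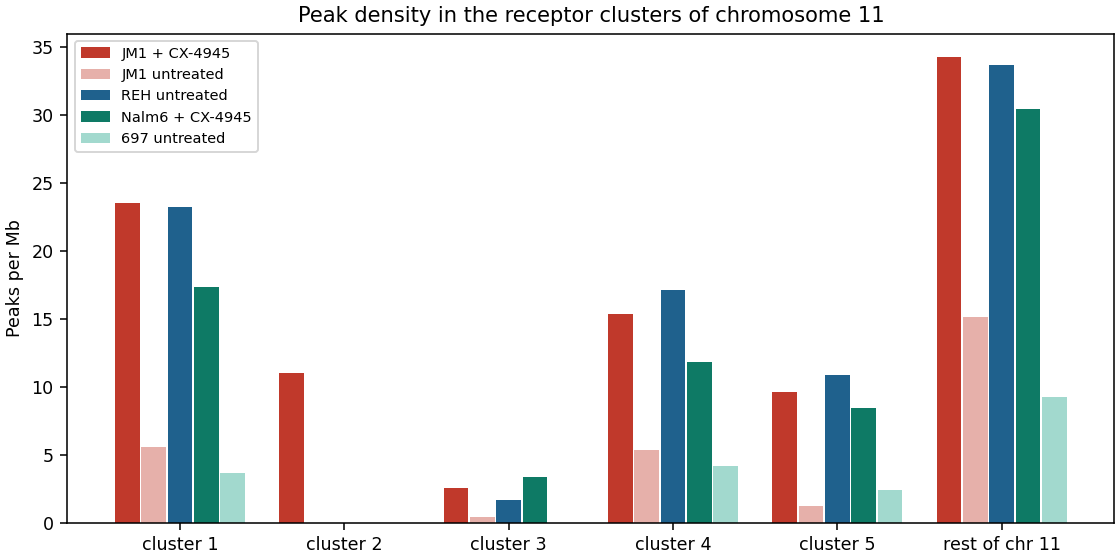
Peaks per Mb (y axis) in each of the 5 receptor clusters and on the rest of chromosome 11 (x axis), with 1 bar per list. On the rest of the chromosome the bars run from 9.22 in 697 to 34.3 in treated JM1, and in cluster 3 none passes 3.35.

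The receptor genes were poor in GC around their TSSs, with a median of 39.5% within 500 bp of the TSS (quartiles 36.6 and 42.6), against 61.3% over all protein-coding genes (54.0 and 67.6). The observed to expected ratio of CpG had a median of 0.153 at receptor genes and 0.725 over all protein-coding genes. Coverage by peaks moved with GC among genes that are no receptors, at 8.64% of those under 35% GC and 97.1% of those at 60% GC or more in treated JM1, and 3.65 and 81.5% in untreated JM1. In the GC range between the receptor genes' quartiles, 2 of 88 receptor genes lay near a peak in treated JM1 (2.27%), against 164 of 887 other protein-coding genes (18.5%). In untreated JM1 these were 0 of 88 against 87 of 887 (9.81%), in REH 2 against 157 (17.7%), in Nalm6 1 against 143 (16.1%) and in 697 0 against 80 (9.02%). These shares are a description, with no test. GC was taken at the canonical TSS, while a peak near any annotated TSS counted. A gene can thus be counted through a TSS of another GC content. Receptor genes had a median of 1 TSS, against 5 over all protein-coding genes, and the part of this was not tested.

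Among the receptor genes themselves, those with a peak were richer in GC. The 13 with a peak near a TSS in at least 1 list had a median of 44.9% GC (32.1 to 53.9%), against 39.4% for the 159 without (27.6 to 50.7%). Of the 6 receptor genes at 50% GC or more, 5 lay near a peak in at least 1 list, namely OR51D1, OR52W1, OR51E1, OR52N2 and OR10Q1, and OR52B6 had none. Of the 166 under 50%, 8 had one (4.82%), among them OR2AT4 at 49.9% GC, just under the cut. Over all protein-coding genes of any GC content, 85.3% lay near a peak in at least 1 list. The share of other genes near a peak in at least 1 list is not given here by GC range. In treated JM1 the count in the range of 50 to 55% GC was 3 of 6, against 70.7% of the 2167 other genes in that range, and in untreated JM1 it was 0 of 6, against 29.7%.

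**Figure D5:**
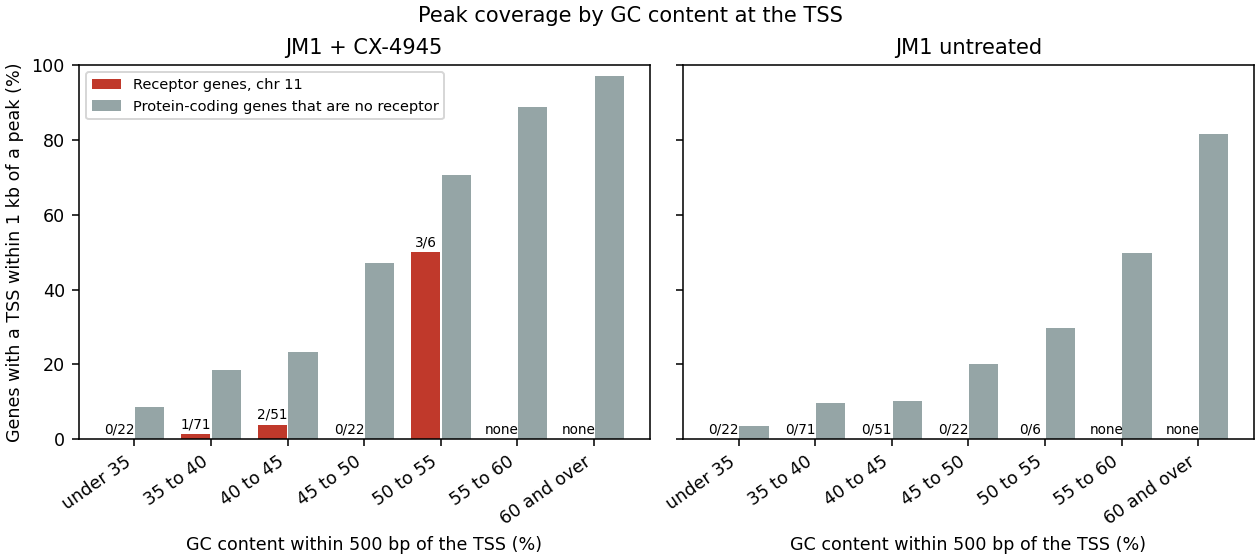
Share of genes with any TSS within 1 kb of a peak (y axis, %) by GC content within 500 bp of the canonical TSS (x axis, %) in treated JM1 (left) and untreated JM1 (right), for receptor genes of chromosome 11 (red, with their counts) and for protein-coding genes that are no receptor (grey). In treated JM1 the receptor genes reach 3 of 6 at 50 to 55% GC, and in untreated JM1 they stay at 0 in every range.

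The peaks themselves stood out in GC from the sequence around them. All 45 were richer in GC than the 5 kb on each side, by a median of 17.0 percentage points (3.8 to 27.8), with a median of 54.6% in the peaks and 38.4% in the flanks. By list, the median difference was 15.3 points in treated JM1 receptor peaks against 7.27 over every peak of that list, and 14.6 for the sole untreated JM1 peak against 8.40. It was 16.9 against 7.89 in REH, 20.4 against 9.36 in Nalm6, and 27.5 for the sole 697 peak against 17.3. The flanks had a fixed length, while receptor peaks were mostly narrow for their lists. The part of peak width and of the GC around the peaks in these differences was not tested. Most peaks of every list exceeded their flanks, at 93.6% in treated JM1, 92.4% in untreated JM1, 95.1% in REH, 96.3% in Nalm6 and 96.3% in 697. GC of the receptor peaks was near that of their lists, with medians of 53.4% in treated JM1 (55.2% over the list), 56.1% in REH (56%) and 57.2% in Nalm6 (59.3%).

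Letters of the Ikaros core stood in a smaller share of the receptor peaks than of their lists. TGGGAA, on either strand, stood in 8 of the 17 treated JM1 peaks (47.1%, where 69.2% of all treated peaks held them), 4 of 14 in REH (28.6%, where 68.7% did) and 4 of 12 in Nalm6 (33.3%, where 59.0% did). Receptor peaks were narrower, so they had fewer letters to search. In windows of 300 bases at the peak centres, TGGGAA stood in 27.6% of all treated JM1 peaks, 27.5% in REH and 26.3% in Nalm6. Those windows are shorter than the median receptor peak, and receptor peaks were not counted in such windows. No depletion can be read from these shares. Per kb, GGGAA, which TGGGAA contains, had a median of 2.17 in treated JM1 receptor peaks against 3.55 over the list, 2.36 against 3.57 in REH and 3.17 against 3.56 in Nalm6. In narrow peaks this value moves in large steps, as 1 match in the OR4D6 peak of Nalm6 (271 bp) gave 3.69 per kb. No depletion can be read from these medians either. In the RefSeq promoters of 300 bases, found for 133 of the receptor genes, TGGGAA stood in 37 (27.8%), against 22.6% of the promoters of 15345 protein-coding genes. GGGAA alone went the other way, in 61.7% of the receptor promoters against 66.2% of the protein-coding ones. A match of letters is a description and not a binding site.

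Receptor genes resemble each other in sequence. In the 1000 bp on each side of the TSS, the median share of 50-base words found once in the genome was 100% for the receptor genes (lowest 67.4%, in OR1S1) and 100% for the other protein-coding genes of chromosome 11. At least 90% of the words were unique at 151 of 172 receptor genes and 1077 of 1145 others. OR4C46, OR4A8 and OR4A5, the receptor genes farthest from any peak, were below 90%. The treatment of reads that match several places was not stated in the labels, and the part of this in the counts was not tested.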

How the data were processed

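The series held 11 libraries, 6 of Ikaros and 5 of input, grouped by line and treatment in their titles. BBDuk served for read trimming, per the labels' protocols. The tools named, per the submitters' processing notes, are MACS2 2.1.1, HOMER 4.10 and Bowtie2 2.3.4.3, with the GRCh38 build. Call settings, controls and read filters were not given in the sources used here. For each peak the 5 deposited lists hold the authors' position, score (whole numbers), annotation class and gene name. Scores start at 10 and were used within a list only. Input libraries and read depth were not analysed here.

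Genes and TSSs came from GENCODE release 44 on the GRCh38 sequence, with Python 3.11.15, pandas 2.3.3, scipy 1.17.1 and pysam 0.24.0. A gene was counted when any annotated TSS was at most 1000 bp from a peak's nearest base. GC was taken at the canonical TSS. Shares have 95% exact Clopper-Pearson intervals. Peaks overlapped when they shared at least 1 bp. The TSS rule was checked on simulated peaks. The genes, lists and rules were chosen with earlier results of these data known. The naming rule took receptor genes near a peak in at least 3 lists (0 met this), the 3 highest-scored near-TSS receptor genes per list, the 5 names carried most often (4 had 3 peaks each, and the 5 tied at 2 peaks were all kept), the 3 highest in either JM1 list alone, and the 3 farthest from any peak. Alternatives varied the window, score, list length, width, TSS choice, overlap and cluster gap. Receptor pseudogenes, flank GC and unique 50-base words joined the plan once the data were known.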

Additional observations from a re-analysis of the deposited data

How the results depend on the processing

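With 1 list per condition no replicate could be left out. No paired analysis was possible because each condition had 1 peak list and no test was run. Counts of receptor genes near a peak stayed few under every alternative. With a window of 500 bp they were 3 in treated JM1 and 2 in Nalm6, where 80.5 and 73.3% of protein-coding genes lay near a peak. With 5000 bp they were 10 in treated JM1, 1 in untreated JM1 and 11 in REH, where 84.5, 64.1 and 84.5% did. With a score of at least 20 they were 2 for treated JM1, 2 for REH and 0 for Nalm6, where 71.7, 76.8 and 66.5% of protein-coding genes remained. At equal list length they were 0 in these lists, where 60.5, 62.2 and 54.4% remained. With both JM1 lists at the shorter length, 2 genes were in the treated list alone, and the share over all protein-coding genes is not given here. Peaks given a receptor name numbered 5 in treated JM1, 0 in untreated JM1, 3 in REH and 2 in Nalm6 at a score of at least 20. Of all peaks in these lists, 58.4, 78.0, 42.0 and 46.1% scored under 20. At equal list length the peaks given a receptor name numbered 2, 0, 0 and 0, where 19652 peaks were kept of 88692, 37448, 83563 and 70894. With the centre within 10000 bp of a TSS of the named gene they were 0 in untreated JM1, 7 in Nalm6 and 0 in 697. Peaks per Mb in the clusters were 8.07 in treated JM1, 0.717 in untreated JM1, 7.17 in REH, 5.74 in Nalm6 and 1.08 in 697 with clusters split at gaps of 500000 bp, which left 7 clusters of 5.58 Mb. They were 5.26, 0.800, 8.0 and 5.48 in the first 4 of these lists at a score of at least 20, and 2.86, 2.06, 2.86 and 2.74 at equal length. Apart from the wider window, these settings remove peaks, genes or sequence by construction. The other 45 values kept within 1.5 times of the reported ones or, for GC, within 1 SD. Many of the 45 could hardly change, so their number is no measure of robustness. Counts of 0 stay 0 where peaks are removed. No receptor peak was wider than 1555 bp, so the width limit of 5000 bp removed none. The 697 list itself set the equal length. Low-scored peaks decide the small counts, and the depth behind them is not known.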

Other observations

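Receptor pseudogenes of chromosome 11 were also sparsely covered. Of 192, 1 had a peak within 1 kb of a TSS in treated JM1 (0.521%), 0 in untreated JM1, 2 in REH (1.04%), 2 in Nalm6 and 0 in 697. The exact intervals overlapped those of the intact receptor genes in every list, and no test of the difference was run. The median GC of the pseudogenes within 500 bp of the TSS was 40.1%, against 39.5% for the intact receptor genes. OR5AN1, a receptor for musk odorants, was named for a REH peak 3.7 kb from its TSS (score 15) that overlapped the gene. OR5AK2 (29) and OR5B12 (28) had the highest scores among peaks named for receptor genes in the treated JM1 list, and their peaks lay 13.3 and 25.7 kb from the TSS and overlapped no peak of another list. Of all treated JM1 peaks, 65.7% overlapped a REH peak and 50.7% a Nalm6 peak.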
